A study of Mus musculus with 6 samples.

Results

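Matrix metalloproteinases (MMPs) and their inhibitors were followed in mouse blood progenitors made to express EVI1, through 10 genes: Mmp2, Mmp9, Mmp12, Mmp13, Mmp14, Mmp19, Timp1, Timp2, Timp3 and Reck. They are 10 of the 18192 genes that the arrays represent, and 23 probe sets are annotated to exactly 1 of them. The genes were chosen from families of known function with their EGFP-positive against EGFP-negative differences already in view, so those differences are described below and not tested. The lead probe set of a gene was selected by the highest mean over the 6 arrays. Of the 10 genes, 4 have 1 probe set and 6 have several.

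The samples were lineage-negative (Lin-) haematopoietic progenitors of C57BL/6J mice carrying Rosa26rtTA, a doxycycline-dependent transactivator, in 2 sorted groups of 3 arrays. The EGFP-positive group had been transduced with pRRL.TET.EVI1.IRES.EGFP, a vector that makes EVI1 and the fluorescent marker EGFP from 1 inducible transcript, and was sorted for high EGFP. Its source labels and titles say so, although the description field of all 6 samples reads untransduced. The EGFP-negative group is called untransduced by its source labels, whereas the design text describes a sort for negative or low EGFP in the transduced culture. Per the design text the cells received doxycycline at 1 µg/ml on the day after transduction and were sorted 20 hours later, and all grew in mSCF (50 ng/ml), mIL-3 (20 ng/ml), hFlt-3 ligand (50 ng/ml) and hIL-11 (50 ng/ml). No cells carrying a vector without EVI1 are analysed here, so effects of EVI1, of transduction and of the EGFP sort cannot be told apart. Each array is a bulk fraction, in which fewer cells of a type and less RNA per cell cannot be told apart. The labels do not tie the replicates to separate cultures or animals, and a p-value here reflects the scatter of these arrays alone, which may be technical.

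MMPs are zinc-dependent endopeptidases, made as inactive precursors, that cut collagens, laminins, elastin and cell surface proteins. TIMPs are small secreted proteins that block the active site of MMPs, and RECK is a membrane-anchored glycoprotein that restrains several of them. In marrow, MMPs are known for the release of growth factors such as Kit ligand and for the passage of blood cells through basement membrane. Arrays measure transcripts, so neither the amount of the proteins nor their activity was measured.

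The values are log2 expression after RMA, with medians of 5.11 to 5.14 on the 6 arrays. Pearson's r across probe sets was 0.989 between EGFP-positive arrays, 0.995 between EGFP-negative arrays and 0.968 to 0.969 between the groups. The highest value of any bacterial control probe set, 3.61, is used as a background ceiling. Mecom, which encodes EVI1, did not pass the test (7.97 ± 0.20 in EGFP-positive and 8.26 ± 0.09 in EGFP-negative arrays, SD, n = 3 each; limma adjusted p = 0.13), although it did without EGFP-positive replicate 1 (-0.41, adjusted p = 0.033). Whether its probe set detects the introduced EVI1 sequence is unknown here, so it does not check the labels. The signal at the 3' end of Actb exceeded that at its 5' end by 1.00 ± 0.03 in EGFP-positive and 0.80 ± 0.05 in EGFP-negative arrays (log2, SD, n = 3 each). For Gapdh the excess was 1.06 ± 0.04 in EGFP-positive and 0.82 ± 0.02 in EGFP-negative arrays. Such an excess is a sign of RNA quality or amplification, and it moved with the groups. Its part in the results below was not tested.

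The gelatinase genes Mmp2 and Mmp9 were far higher in EGFP-positive cells, Timp2 and Mmp14 were higher by less, and Mmp12, Mmp13, Mmp19, Timp1 and Reck were lower. Timp3 lay at nearly the same level in both groups. In the fit over all genes (limma, Benjamini-Hochberg adjusted p under 0.05) 9 of the 10 genes were past the threshold, 4 higher and 5 lower, where 33.2% of all genes passed, 16.0% higher and 17.2% lower. Because the genes were picked with this contrast known, nothing is read from that count. Their median difference was -0.60 and the median size of the difference was 1.39 on the log2 scale, beside 0.02 and 0.27 over all genes.

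**Figure D1:**
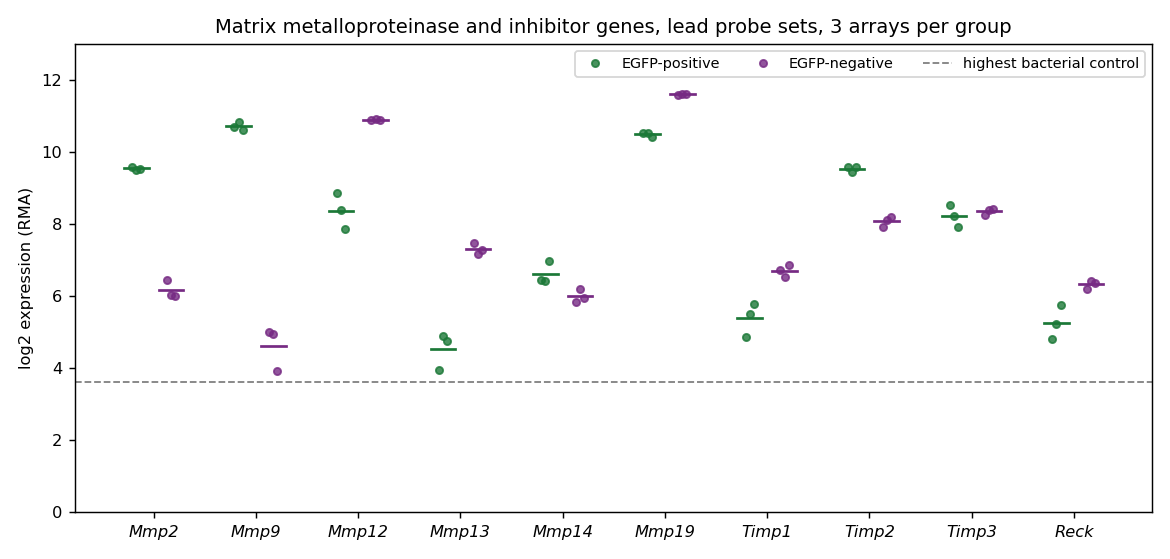
Log2 expression (vertical axis) of the lead probe set of each of the 10 genes on the 3 EGFP-positive arrays (green, left) and the 3 EGFP-negative arrays (purple, right). Points are arrays, bars are group means and the dashed line is the highest bacterial control value, 3.61. The widest gap between the groups is that of Mmp9, and Timp3 has groups that overlap, while 48.2% of all genes have groups that do not.

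Mmp9 encodes gelatinase B, which cuts denatured collagen and type IV collagen and is best known from neutrophils and macrophages. Its lead probe set, 1416298_at, read 10.69, 10.84 and 10.61 in EGFP-positive arrays, against 5.0, 4.94 and 3.92 in EGFP-negative arrays. The groups were separated by 5.60, and EGFP-negative replicate 3 was the lowest array, close to the background ceiling. The difference of 6.09 (SE 0.30) is a 68.2-fold higher level, and 0.022% of all genes had a larger difference in either direction. The second probe set, 1448291_at, differed by 4.71 (SE 0.27), with 8.88 ± 0.12 in EGFP-positive and 4.16 ± 0.56 in EGFP-negative arrays (SD, n = 3 each). There 1 EGFP-negative array lay just under the ceiling, so that fold is at least 26.19.

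Mmp2 encodes gelatinase A, the other gelatinase of the family, which is made mainly by mesenchymal cells. The lead probe set read 9.59, 9.51 and 9.54 in EGFP-positive arrays, against 6.45, 6.03 and 6.01 in EGFP-negative arrays. All EGFP-positive arrays lay at least 3.06 above every EGFP-negative array. The difference was 3.38 (SE 0.14), or 10.4-fold, and Mmp2 ranked 73 by difference among the 9569 genes with a higher mean in EGFP-positive cells. The second probe set gave nearly the same difference at a lower level, 3.24 (SE 0.23), with 7.30 ± 0.23 in EGFP-positive and 4.06 ± 0.40 in EGFP-negative arrays (SD, n = 3 each).

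Mmp14 encodes a membrane-anchored MMP that activates the precursor of MMP2 at the cell surface. Its lead probe set read 6.45, 6.43 and 6.97 in EGFP-positive arrays and 5.84, 6.20 and 5.93 in EGFP-negative arrays. The groups did not overlap, but the gap of 0.23 was smaller than the range within either group. The difference was 0.63 (SE 0.18). A second probe set, 1448383_at, gave 0.51 (SE 0.19) and the third and dimmest, 1416572_at, gave -0.02 (SE 0.16) with means of 3.94 in EGFP-positive and 3.96 in EGFP-negative arrays, close to the ceiling. The probe sets of Mmp14 therefore disagree, and 2 of 3 show a higher level in EGFP-positive cells.

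Mmp12 and Mmp13 were both lower in EGFP-positive cells by a similar amount. Mmp12, the elastase of macrophages, read 8.85, 8.39 and 7.87 in EGFP-positive arrays, against 10.90, 10.92 and 10.88 in EGFP-negative arrays. The EGFP-positive arrays differed among themselves by about as much as a log2 unit, with an SD of 0.49 beside 0.02 in EGFP-negative arrays. The difference was -2.53 (SE 0.24), which is 5.76-fold lower. Mmp13, a collagenase of cartilage and bone, read 3.95, 4.88 and 4.76 in EGFP-positive arrays, against 7.46, 7.17 and 7.26 in EGFP-negative arrays. All 3 EGFP-positive arrays stayed above the background ceiling, the lowest by little. The difference of -2.77 (SE 0.25), a 6.81-fold lower level, was the largest decrease among the 10 genes.

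Mmp12 and Mmp13 are neighbours in a cluster of 10 MMP genes on mouse chromosome 9 (RefSeq, GRCm38.p6), of which 9 were measured. Of the other 7, Mmp8, the collagenase of neutrophils, fell to 3.93 ± 0.16 in EGFP-positive arrays, against 6.43 ± 0.08 in EGFP-negative arrays (SD, n = 3 each; -2.50, SE 0.11, limma adjusted p = 3.8e-05). Mmp10, a stromelysin, also fell, to 3.51 ± 0.41 in EGFP-positive arrays against 4.73 ± 0.31 in EGFP-negative arrays (-1.23, SE 0.25, adjusted p = 0.011), and was at least 2.048-fold lower. Mmp1b, Mmp3, Mmp1a, Mmp20 and Mmp7 lay under the ceiling on every array. Along the chromosome, Mmp13 and Mmp12 form an adjacent pair and Mmp10 and Mmp8 another, with Mmp1b, Mmp3 and Mmp1a between the pairs. A gene at background in EGFP-negative cells could not be seen to be lower, so the count of lower genes in the cluster is not read further.

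**Figure D2:**
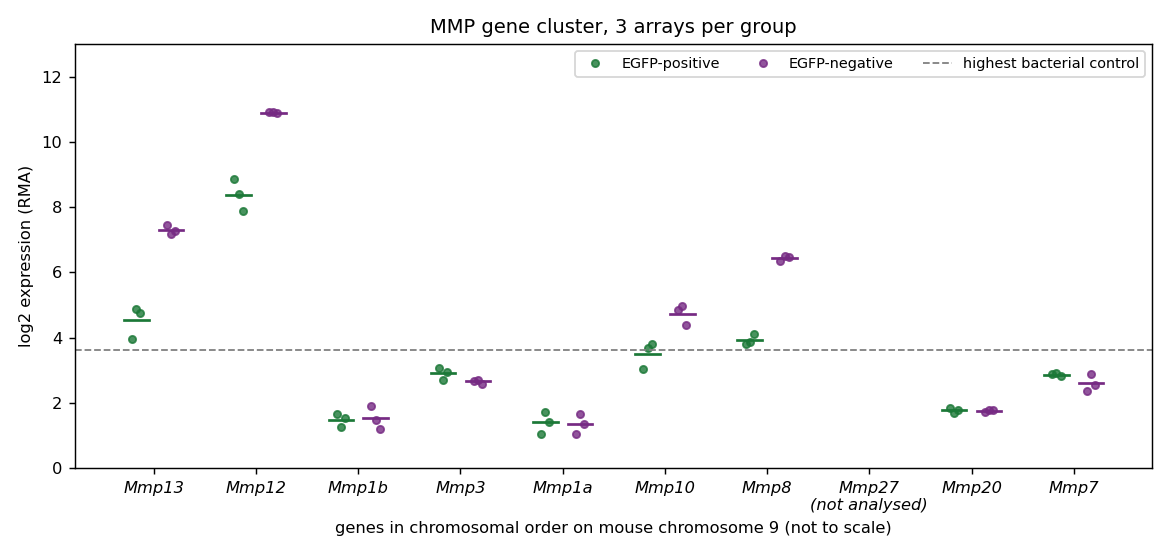
Log2 expression (vertical axis) of the MMP genes of chromosome 9 in their order along the chromosome (horizontal axis, not to scale), with the 3 EGFP-positive arrays in green (left) and the 3 EGFP-negative arrays in purple (right), group means as bars and the background ceiling of 3.61 dashed. Mmp13, Mmp12, Mmp10 and Mmp8 are above the ceiling in EGFP-negative cells and lower in EGFP-positive cells. Mmp27 was not analysed here.

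The sequence upstream of Mmp12 and Mmp13 is shown because both genes, side by side, were lower together. RefSeq windows from 250 bases before to 50 bases after the transcription start were at hand for 7 of the 10 genes. There were 8 windows, since Mmp12 has 2 starts, and none for Mmp2, Mmp9 or Mmp19. The windows were searched on both strands for 4 motifs. These were the AP-1 motif TGANTCA, the GATA motif AGATAA, and the EVI1 motifs GACAAGATA and GAAGATGAG, the first of which overlaps the GATA motif when an A follows it. AP-1 letters stood in 2 of the 8 windows, those of Mmp12 and Mmp13, and in 7.81% of 32851 windows of all genes. The other 3 motifs stood in none of the 8 windows and in 11.2%, 0.119% and 0.399% of all windows. A match of letters is a description of the window and not a bound site. Below are the 250 bases before the start, 5′ to 3′ (GRCm38.p6), with the AP-1 letters in capitals: Mmp12 at chr9:7347124-7347373 on the plus strand (its second start) and Mmp13 at chr9:7272264-7272513 on the plus strand.
Mmp12: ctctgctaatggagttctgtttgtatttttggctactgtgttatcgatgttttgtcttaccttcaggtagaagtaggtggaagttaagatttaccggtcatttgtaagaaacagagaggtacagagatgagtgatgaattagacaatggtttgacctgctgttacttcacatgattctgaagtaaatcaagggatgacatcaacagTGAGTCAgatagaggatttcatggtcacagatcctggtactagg
Mmp13: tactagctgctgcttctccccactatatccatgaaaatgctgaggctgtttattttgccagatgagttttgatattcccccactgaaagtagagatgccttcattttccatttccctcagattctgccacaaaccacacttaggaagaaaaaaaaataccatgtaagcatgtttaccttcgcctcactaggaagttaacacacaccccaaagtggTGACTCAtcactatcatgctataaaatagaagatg
The AP-1 letters begin at base -44 of Mmp12 and at base -35 of Mmp13, counted back from the start. The windows without these letters were the other start of Mmp12 and those of Timp1 and Reck, which were lower, of Mmp14 and Timp2, which were higher, and of Timp3, so no link with direction is drawn.

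Mmp19 encodes a secreted MMP that cuts basement membrane proteins. It read 10.54, 10.54 and 10.41 in EGFP-positive arrays, against 11.58, 11.60 and 11.62 in EGFP-negative arrays. Neither group spread by more than 0.13, and they were 1.04 apart. The difference was -1.10 (SE 0.08), or 2.15-fold lower, and the second, dimmer probe set gave -1.17 (SE 0.20).

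The inhibitors differed in direction. Timp2, which blocks MMPs and also takes part in the activation of MMP2 on MMP14, read 9.58, 9.45 and 9.58 in EGFP-positive arrays, against 7.92, 8.12 and 8.19 in EGFP-negative arrays. Every EGFP-positive array was above every EGFP-negative array by at least 1.26. The difference was 1.46 (SE 0.10), or 2.75-fold higher. Of its other 5 probe sets, 1454677_at, 1433662_s_at and 1450040_at gave 1.84, 1.67 and 1.52, while 1437081_at gave 0.53 with all EGFP-negative arrays under the ceiling and 1420924_at lay under the ceiling on all 6 arrays.

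Timp1, a secreted inhibitor that binds the precursor of MMP9, read 4.87, 5.49 and 5.79 in EGFP-positive arrays, against 6.73, 6.52 and 6.86 in EGFP-negative arrays. The groups did not overlap, with an SD of 0.47 in EGFP-positive and 0.17 in EGFP-negative arrays. The difference was -1.32 (SE 0.24), a 2.50-fold lower level. Reck, the membrane-anchored inhibitor of MMP2, MMP9 and MMP14, read 4.80, 5.21 and 5.74 in EGFP-positive arrays and 6.20, 6.41 and 6.35 in EGFP-negative arrays. The groups were 0.45 apart, about the SD within the EGFP-positive arrays (0.47). Its difference was -1.07 (SE 0.24), or 2.09-fold lower.

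Timp3, an inhibitor that stays bound to matrix and also acts on ADAM proteases, read 8.52, 8.22 and 7.91 in EGFP-positive arrays and 8.26, 8.39 and 8.41 in EGFP-negative arrays. The groups overlapped, and the difference of -0.13 (SE 0.16) was smaller than its error. A probe set of almost the same level, 1449335_at, gave -0.23 (SE 0.17) and also overlapped. The third, 1419089_at, gave -0.43 (SE 0.11), at 7.51 ± 0.14 in EGFP-positive and 7.94 ± 0.04 in EGFP-negative arrays (SD, n = 3 each) and without overlap. The fourth lay under the ceiling in 4 of 6 arrays, so no fold is given.

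**Figure D3:**
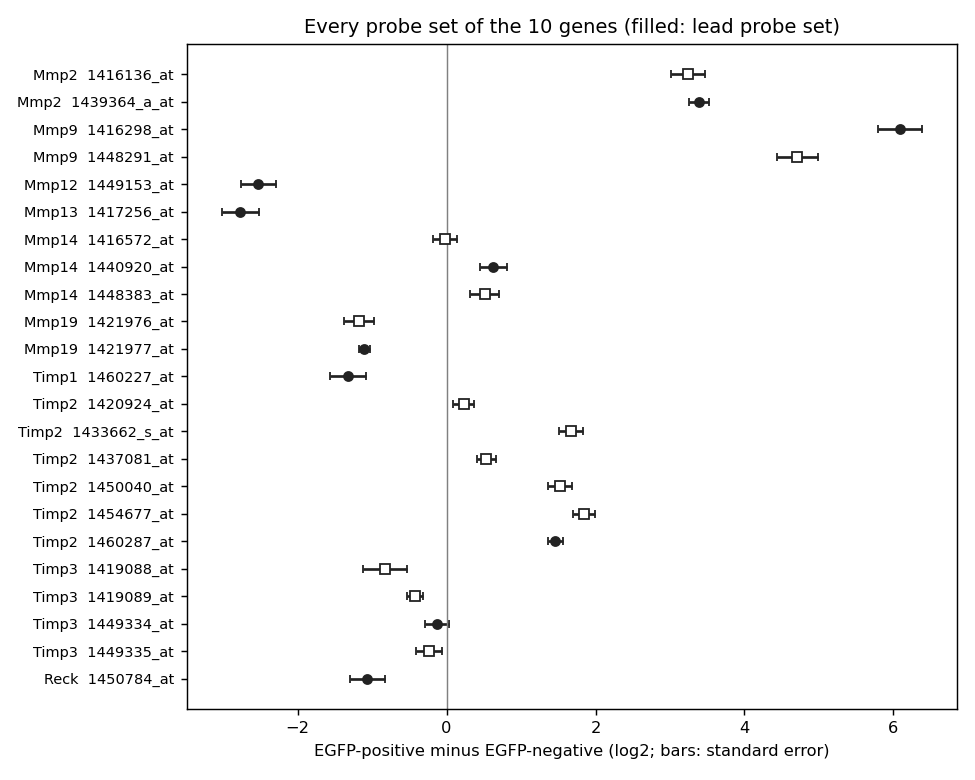
Difference between EGFP-positive and EGFP-negative arrays (horizontal axis, log2, mean of 3 minus mean of 3, bars showing the standard error from limma) for each of the 23 probe sets of the 10 genes, with lead probe sets filled. The 2 probe sets of Mmp9, of Mmp2 and of Mmp19 point the same way, those of Mmp14 run from -0.02 to 0.63 and those of Timp3 all lie at or below -0.13.

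By probe set, the groups did not overlap at 19 of the 23, beside 41.2% of all 45037 probe sets. The 19 include the fourth of Timp3, where all EGFP-positive arrays lie under the ceiling and the gap is 0.02. Nothing is read from this count, since the genes were picked on the same contrast. In each gene with several probe sets above background, no probe set differed by more than its SE in the opposite direction to the lead. RefSeq places Timp1 within the locus of Syn1 and Timp3 within that of Syn3, which encode synapsins. Syn1 read 2.64 in EGFP-positive and 2.60 in EGFP-negative arrays, under the ceiling, and Syn3 read 4.65 in EGFP-positive and 4.76 in EGFP-negative arrays (-0.11, limma adjusted p = 0.67). Timp2 overlaps Cep295nl, which read under the ceiling in both groups, and Mmp19 overlaps Tmem198b, which read 11.19 in EGFP-positive and 11.41 in EGFP-negative arrays (-0.22, adjusted p = 0.12).

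The genes most like Mmp9 and Mmp13, which stood at the extremes of the 10 differences, were sought by the smallest Euclidean distance between centred log2 values over the 6 arrays. Nearest to Mmp9 were Slc4a1, the anion exchanger of red cells (distance 0.86), the gasdermin gene Gsdmc2 (0.90), Esrp1, a splicing regulator of epithelia (0.96), and the cathepsin gene Ctsj (0.96). Their EGFP-negative arrays all lay under the ceiling, so their likeness to Mmp9 there is not measured. Nearest to Mmp13 were Tgm2, a transglutaminase (0.42), the myosin kinase gene Mylk3 (0.42), Rgs1, a regulator of G protein signalling (0.42), and Pxdc1 (0.46), with differences from -2.87 to -2.60. With 2 groups, such likeness rests mainly on the size of the group difference.

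The remaining genes of the MMP and TIMP families were mostly at background. Of 13 measured (18 listed), 1 rose and 2 fell, and 9 had both group means under the ceiling. The rise was Mmp23, a membrane-associated MMP, with 7.33 ± 0.20 in EGFP-positive and 5.28 ± 0.13 in EGFP-negative arrays (SD, n = 3 each; 2.05, SE 0.13, limma adjusted p = 0.00013). The falls were Mmp8 and Mmp10, given above. The list median was 0.05, beside 0.02 over all genes, and the counts of this and the lists below stand beside 16.0% of all genes higher and 17.2% lower. These lists and the marker lists were also chosen with earlier results of these data known, so their counts are a description and nothing is read from them. Without EGFP-positive replicate 2 there were 3 rises (Mmp3 and Mmp11 joined), and 2 without EGFP-positive replicate 3 (Mmp17) or EGFP-negative replicate 2 (Mmp7). Mmp3 and Mmp7 lay under the ceiling on every array, where arrays cannot order values.

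Among the related ADAM genes, which encode membrane-bound sheddases and their relatives, 3 of 13 rose and 5 fell. Adam33 rose most, to 7.33 ± 0.07 in EGFP-positive arrays against 3.72 ± 0.20 in EGFP-negative arrays (SD, n = 3 each; at least 11.96-fold at its brightest probe set, limma adjusted p = 2.3e-05), and Adam22 and Adam11 rose by 1.52 and 0.87. Averaged over their probe sets, the differences were 2.03 for Adam33 and 0.84 for Adam22. Adam19 fell by 1.74 and Adam8, a sheddase of leukocytes, fell by 1.07 (10.26 ± 0.10 in EGFP-positive and 11.33 ± 0.04 in EGFP-negative arrays). Adam23 fell by 0.76, but by 0.25 with the mean of its probe sets (adjusted p = 0.11). The other falls, named after their values were seen, were Adam12, at least 1.169-fold lower with all EGFP-positive arrays under the ceiling, and Adam15, and that of Adam15 (-0.35) was lost without any 1 of the 6 arrays (adjusted p from 0.050 to 0.078).

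ADAMTS genes, the secreted branch that cuts proteoglycans and procollagens, passed in 4 of 15 cases, beside 33.2% of all genes. Of the 15, 6 had both group means under the ceiling. Adamts20 fell to 2.06 ± 0.72 in EGFP-positive arrays, under the ceiling, against 4.64 ± 0.52 in EGFP-negative arrays (SD, n = 3 each; at least 2.03-fold lower, limma adjusted p = 0.0045). Adamts9, with all EGFP-positive arrays and 1 EGFP-negative array under the ceiling, was at least 1.33-fold lower. Adamts4, an aggrecanase, fell by 1.17, and Adamts10 rose by 0.49. Those 3 calls were unstable. The call of Adamts4 held without EGFP-positive replicate 1 and was lost when any other array was left out (adjusted p from 0.054 to 0.12), and that of Adamts9 without EGFP-positive replicate 1 or 2 or EGFP-negative replicate 1 or 3 (0.077 to 0.11). That of Adamts9 was also lost with array weights (0.061) and with the mean of its probe sets (-0.42, 0.071). So 1 fall was left without EGFP-positive replicate 2 or EGFP-negative replicate 1 or 3. The call of Adamts10 was lost without EGFP-negative replicate 2 (0.056) or 3 (0.060) and with the mean of its probe sets (0.18).

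Among proteases that activate MMP precursors and their serpin inhibitors, falls outnumbered rises. Of 17 measured, 1 rose, 8 fell and 8 did not pass, with a median of -0.31, and 5 had both group means under the ceiling. The neutrophil serine proteases Ctsg and Elane fell by 3.65 and 2.93, with Ctsg at 9.29 ± 0.11 in EGFP-positive and 12.94 ± 0.04 in EGFP-negative arrays (SD, n = 3 each; limma adjusted p = 1.6e-05). Plaur, the receptor of the plasminogen activator urokinase, fell by 2.17, to 8.09 ± 0.22 in EGFP-positive arrays against 10.26 ± 0.03 in EGFP-negative arrays (adjusted p = 9.4e-05). The rise was Pcsk7, a proprotein convertase (0.59), whose call was lost without EGFP-positive replicate 2 or 3 or EGFP-negative replicate 2 or 3 (adjusted p from 0.078 to 0.11). Other falls, named after their values were seen, included Furin (-0.25), lost without any 1 array (adjusted p from 0.070 to 0.12). Serpinb2 and Mcpt4 were at least 1.9-fold and 1.04-fold lower, with all their EGFP-positive arrays under the ceiling.

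Genes whose products bind or clear MMPs went both ways, with 4 of 21 higher and 6 lower. Of the 21, 7 had both group means under the ceiling. Itgb3 and Itgav, the subunits of the vitronectin receptor, rose by 0.73 and 0.60 (limma adjusted p = 0.00080 and 0.0022), and Itgav by 1.87 at its most variable probe set. Thbs1, a thrombospondin, rose by 0.50. Lcn2, the lipocalin that forms a complex with MMP9 in human neutrophils, fell by 0.55 (11.13 ± 0.04 in EGFP-positive and 11.68 ± 0.05 in EGFP-negative arrays, SD, n = 3 each; adjusted p = 0.0025). Tfpi2, a serine protease inhibitor, was at least 3.27-fold lower and Thbs2 at least 2.46-fold lower, both with EGFP-positive means under the ceiling, and Thbs2 differed by -0.86 with the mean of its probe sets. The fourth rise, named after its value was seen, was the tetraspanin gene Cd151 (0.45), lost without EGFP-negative replicate 2 (adjusted p = 0.054).

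Of 30 genes for substrates of MMPs, 6 rose and 7 fell, and 7 had both group means under the ceiling. Fn1, fibronectin, rose to 9.10 ± 0.07 in EGFP-positive arrays against 4.39 ± 0.39 in EGFP-negative arrays (SD, n = 3 each; 26.2-fold, limma adjusted p = 3.6e-05). The basement membrane genes Agrn and Nid1 rose by 2.03 and 1.94, and by 0.92 and 0.79 with the mean of their probe sets. The falls of smallest p were Tnf, the precursor of an inflammatory cytokine (-1.44), the cell surface proteoglycan gene Sdc1 (-2.28) and Hbegf, a shed growth factor (-0.93), with adjusted p of 7.1e-05, 0.00019 and 0.00035. Sdc1 gave -1.32 with the mean of its probe sets. Col5a1, a fall named after its value was seen, gave -1.02. Its call was lost without any 1 array but EGFP-positive replicate 3 (limma adjusted p from 0.071 to 0.12). Kitl, the Kit ligand that MMP9 releases in mouse marrow, was named after its value was seen: it rose to 5.87 ± 0.55 in EGFP-positive arrays against 3.74 ± 0.46 in EGFP-negative arrays (at least 3.997-fold, adjusted p = 0.0042).

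Transcription factors known to act on MMP promoters were divided, with 5 of 23 higher and 6 lower. Among AP-1 genes Fosl2 rose by 0.67 (12.21 ± 0.05 in EGFP-positive and 11.54 ± 0.06 in EGFP-negative arrays, SD, n = 3 each; limma adjusted p = 0.0013) and Jun fell by 1.18 (9.36 ± 0.22 in EGFP-positive and 10.55 ± 0.05 in EGFP-negative arrays; adjusted p = 0.00085). Relb and Stat3 rose by 0.89 and 0.43, and Stat3 by 0.82 at its most variable probe set. Etv5, of the ETS family, fell by 2.95 and Egr1 fell by 0.70. The other rises, named after their values were seen, were Rela (0.34) and Junb (0.29). Junb lost its call without any 1 array (adjusted p from 0.050 to 0.11) and Rela without any 1 but EGFP-positive replicate 3 (0.050 to 0.10), which left 3 rises without EGFP-positive replicate 1 or any 1 EGFP-negative array.

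Among other enzymes of the matrix rises outnumbered falls, with 8 of 19 rising, 2 falling and 9 not passing (median 0.15). Lox, which cross-links collagen, rose to 8.75 ± 0.13 in EGFP-positive arrays against 6.78 ± 0.12 in EGFP-negative arrays (SD, n = 3 each; limma adjusted p = 7.9e-05). Hpse, the heparanase, rose by 0.83 and the cathepsin gene Ctsb rose by 0.65. The call of Ctsb was lost when it was represented by the probe set of highest variance (0.08, adjusted p = 0.90). Other rises, named after their values were seen, included Anpep (0.47), lost without any 1 array but EGFP-positive replicate 3 (adjusted p from 0.085 to 0.12). Fap was at least 1.5-fold higher, with all its EGFP-negative arrays under the ceiling. Dpp4, a surface peptidase, fell by 1.69 (by 1.01 averaged over its probe sets) and the cathepsin gene Ctsd by 0.62.

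**Figure D4:**
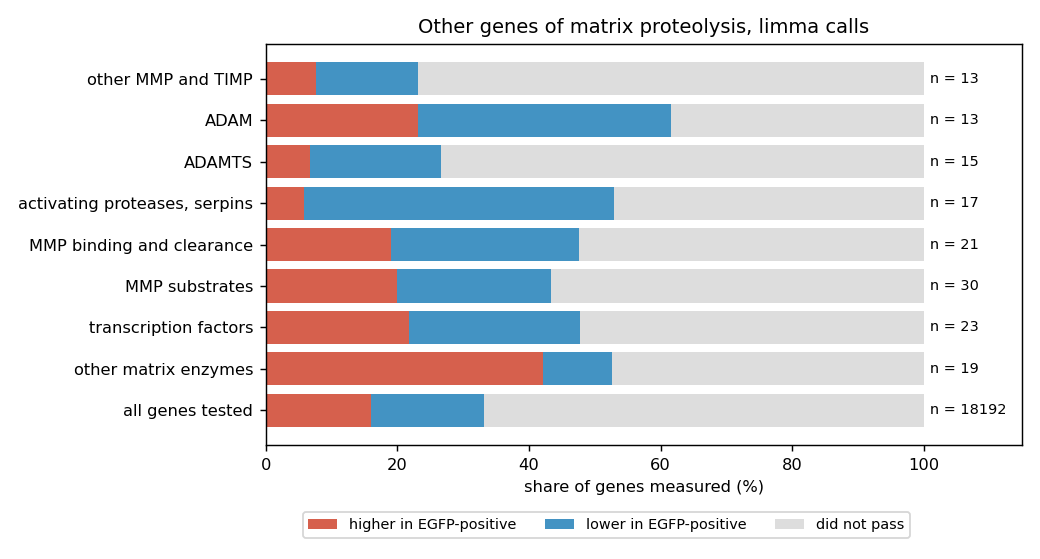
Share of measured genes (horizontal axis, percent) that were called higher (red) or lower (blue) in EGFP-positive than in EGFP-negative cells or did not pass (grey) in each list, with the number measured beside each bar, and the same for all 18192 genes. The 10 genes described above are not in the lists, which were also chosen with earlier results of these data known. Other matrix enzymes have 8 of 19 higher and activating proteases and serpins 8 of 17 lower.

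Marker lists of cell types, here and in the next paragraph, are described by counts, beside 16.0% of all genes higher and 17.2% lower. The stromal levels overlapped between the groups. Among 14 stromal markers, 9 had both group means under the ceiling, where arrays cannot order values, and Postn, counted below as a rise, is among them. All 13 measured of 14 neutrophil markers fell, and their mean level per array was 9.21 to 9.28 in EGFP-positive and 11.28 to 11.39 in EGFP-negative arrays. Of 14 macrophage markers 2 rose and 5 fell (5.60 to 5.81 in EGFP-positive and 6.29 to 6.45 in EGFP-negative arrays), with Vsig4 under the ceiling on all arrays. Of 10 osteoclast markers 2 rose and 4 fell (5.82 to 5.92 in EGFP-positive and 6.01 to 6.11 in EGFP-negative arrays), with Calcr and Tnfrsf11a under the ceiling. Of 14 stromal markers 2 rose and 2 fell (4.09 to 4.26 in EGFP-positive and 4.24 to 4.35 in EGFP-negative arrays), and Pdgfra, Col3a1, Lum, Lepr, Col6a1 and Adipoq lay under the ceiling on all 6 arrays. The stromal rises were the collagen gene Col1a1 (2.0, limma adjusted p = 0.0089) and Postn, whose EGFP-positive mean was 3.58, under the ceiling. The stromal falls were Pdgfrb and Vcam1.

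Most endothelial and red cell markers were higher in EGFP-positive cells. Of 12 endothelial markers 8 rose and 2 fell (6.78 to 7.0 in EGFP-positive and 5.50 to 5.63 in EGFP-negative arrays), with Emcn and Robo4 under the ceiling on all arrays. Of 12 measured erythroid markers 9 rose and 1 fell (5.97 to 6.04 in EGFP-positive and 4.20 to 4.43 in EGFP-negative arrays), with Rhag, 1 of the rises, and Epb42 under the ceiling on all arrays. Of 10 measured megakaryocyte markers 4 rose and 1 fell (6.91 to 7.04 in EGFP-positive and 6.42 to 6.50 in EGFP-negative arrays), with Gp6 under the ceiling. Vwf is a rise in both the endothelial and the megakaryocyte list. Of 11 measured progenitor markers, which bear on the Lin- label, 6 fell and 0 rose (9.34 to 9.53 in EGFP-positive and 10.19 to 10.23 in EGFP-negative arrays), and no marker lay under the ceiling on all arrays. The lists share members with those above, such as Mmp8, Lcn2 and the protease genes Ctsg, Elane and Prtn3 (neutrophil) and Itgb3 (osteoclast). The falls of these neutrophil genes are therefore counted in both places. The part of these differences in the MMP and TIMP values was not tested.

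**Figure D5:**
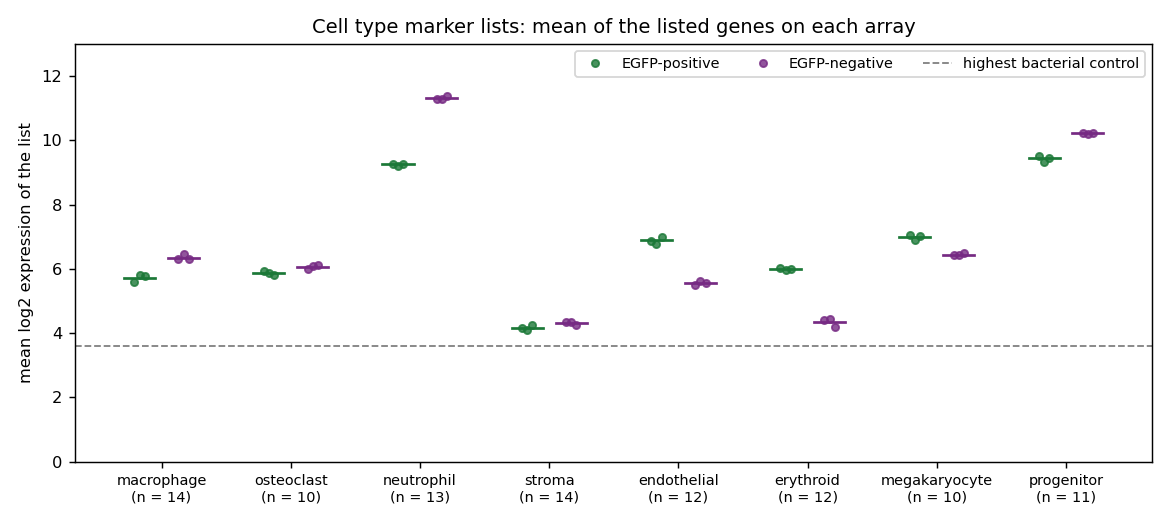
Mean log2 expression (vertical axis) of each cell type marker list, with 1 point per array, EGFP-positive in green (left) and EGFP-negative in purple (right), group means as bars, the number of genes in brackets and the background ceiling of 3.61 dashed. The neutrophil list is lower in EGFP-positive arrays (9.21 to 9.28, against 11.28 to 11.39) and the erythroid list is higher (5.97 to 6.04, against 4.20 to 4.43).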

How the data were processed

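RNA of 6 sorted samples was measured on 1 Affymetrix 3' array each. The deposited values are log2 expression per probe set, made by RMA per the submitters' processing notes (version not stated), which corrects background, quantile-normalizes and summarises probes. Quantile normalization hides any change in total RNA per cell. Of 45037 probe sets, 34945 have 1 gene in GEO's platform annotation, 932 several and 9160 none in the table used. Entrez identifiers of 34741 were found in RefSeq, with 0 symbols changed. Sequences are RefSeq's (GRCm38.p6). Each of 18192 genes was represented by its probe set with the highest mean.

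Groups came from the sample titles. EGFP-positive minus EGFP-negative was fitted with limma 3.58.1 (R 4.3.3; lmFit, eBayes) over all genes, with Benjamini-Hochberg adjustment and a threshold of 0.05. SEs of probe sets that do not lead come from the same fit over all probe sets. Values of the dimmer group below the highest of 27 bacterial control probe sets (3.61) were set to it for folds, which are then lower bounds, and no fold is given where both means lay below it. The number of arrays limits the precision.

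The 10 genes and all lists were chosen with earlier results of these data known. Named were the 10 genes, Mecom, up to 3 rises and 3 falls of smallest p per list, and the 4 genes nearest Mmp9 and Mmp13. Alternatives were a replicate block, a further quantile normalization, a median shift, brighter genes only, eBayes trend and robust, array weights, other probe set rules, each array left out and, added after seeing the data, a filter at the background ceiling. The fit was tested on simulated data.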

Additional observations from a re-analysis of the deposited data

How the results depend on the processing

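Under the 10 settings other than leaving arrays out (9 for Mmp13, Mmp14, Timp1 and Reck, which are not among the brighter genes), no difference of the 10 genes changed sign. With 1 array left out, the difference of Timp3 ran from -0.28 to 0.02, and the other 9 kept their sign. The most variable probe set gave -1.17 for Mmp19, 1.84 for Timp2 and -0.83 for Timp3, and the mean of all probe sets gave 5.40 for Mmp9, 0.37 for Mmp14, 1.21 for Timp2 and -0.41 for Timp3. Counts of other genes depended more on the settings. With brighter genes only, fewer genes are tested, and there were 0 rises and 0 falls among other MMP and TIMP genes, 1 rise and 3 falls among ADAM genes, 0 falls among ADAMTS genes, 3 falls among binding and clearance genes, and 3 rises and 4 falls among substrates. The most variable probe set left 3 rises among transcription factors, the mean of all probe sets left 0 rises among ADAMTS genes, and a filter at the background ceiling left 1 ADAMTS fall. With 1 array left out, rises ranged from 1 to 3 for other MMP and TIMP genes, 0 to 1 for ADAMTS genes, 0 to 1 for activating proteases and serpins, and 3 to 4 for transcription factors, and ADAMTS falls from 1 to 2. The Mecom difference ranged from -0.41 to -0.22 without 1 array, and was 0.13 with its most variable probe set (limma adjusted p = 0.74). The causes were not tested.

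Deviations of same-numbered arrays correlated at 0.01, -0.01 and 0.00 across genes, so no shared deviation was seen. Whether the replicate numbers in the titles pair the samples is unknown, since a shared origin need not leave such a trace. With the replicate block 4900 genes were called, beside 6045 without it, and the rises became 0 among ADAMTS genes, 0 among activating proteases and serpins and 3 among transcription factors. Arrays cannot order values under the background ceiling, where both means of 231 called genes lie.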
